A study of Homo sapiens with 6 samples.

Results

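The 10 plasma cell and memory surface genes described here are JCHAIN, MZB1, TNFRSF17, TNFRSF13B, CD27, SDC1, SLAMF7, CD38, BHLHE41 and CHST2. They were taken by name, as every probe set of the array whose annotation gives 1 of these symbols and no other, which is 18 of 41091 single-gene probe sets. RNA came from KARPAS-422 and Pfeiffer, established human lines from diffuse large B-cell lymphomas, which arise from mature B cells. Each line was transduced with lentivirus for a hairpin against EZH2 (shEZH2) or for a control hairpin against a non-mammalian sequence (shNTC), both arms were selected in puromycin, and RNA was taken at 10 days. KARPAS-422 had 2 arrays per arm, called biological replicates in the labels, and Pfeiffer had 1 array per arm. All arrays thus share the virus and the drug, and each arm rests on 1 hairpin sequence. The p-values below measure the spread between the KARPAS-422 arrays. In the test over both lines they also measure how far the responses of the lines differ.

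A B cell that becomes a plasma cell turns to secreting antibody, takes on new surface receptors and silences its B cell programme. JCHAIN joins antibody monomers into polymers, and MZB1 is an endoplasmic reticulum chaperone of antibody assembly. TNFRSF17 (BCMA) and TNFRSF13B (TACI) bind the survival ligands BAFF and APRIL. CD27 binds CD70 and is the usual surface mark of human memory B cells. SDC1 (CD138), SLAMF7 and CD38 are used to sort plasma cells, although none is made by them alone. BHLHE41 is a basic helix-loop-helix repressor of transcription, and CHST2 adds sulfate to sugar chains. EZH2 is the enzyme of Polycomb repressive complex 2, which methylates histone H3, and it is high in germinal centre B cells before plasma cells form.

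Values are log2 array signals, so a difference of 1 is a doubling of the signal, and signals of different probe sets are not compared as levels. EZH2 in KARPAS-422 read 11.71 and 11.57 in shNTC and 10.52 and 10.55 in shEZH2, and its difference of -1.11 (SE 0.10, n = 2 per arm, limma adjusted p 0.00107) left 46.3% of the control signal. In Pfeiffer it read 11.65 and 10.24, which is 37.6% of the control. The 9 mature B cell identity markers on the array all passed the signal filter given below. EBF1 passed through KARPAS-422 only, as it read 6.02 and 6.01 in Pfeiffer shNTC and shEZH2. Of the 9, 1 gene, CD79B, was higher after knockdown in KARPAS-422 and none was lower. The ratio of 3′ to 5′ signal of ACTB, a sign of RNA quality, moved with the arm in KARPAS-422. Its log2 value was 0.059 and 0.083 in shNTC and 0.138 and 0.175 in shEZH2, and its part in the differences below was not tested. For GAPDH the arms overlapped, at -0.182 and -0.158 in shNTC and -0.169 and -0.241 in shEZH2.

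Knockdown in KARPAS-422 was followed by higher signal of JCHAIN, BHLHE41 and CHST2, and by no called change of the other genes that could be tested. Only probe sets that exceeded 6.21, the median of all values, on 2 or more of the 6 arrays were tested. Of the 18 probe sets, 12 passed, for 9 genes, and SLAMF7 had none that did. Gene positions given below are from RefSeq on GRCh38.p14. Of these 12 probe sets, 3 rose, 0 fell and 9 were not called at an adjusted p of 0.05, where 21.5% of all 25186 probe sets were called in either direction, 12.4% higher and 9.10% lower. A count of 3 is too small to set these genes apart from that share. The median difference was -0.08 for the 12 probe sets and 0.02 for all. In Pfeiffer 0 of the 12 moved by 1 log2 unit or more, where 5.07% of all probe sets did, 3.53% higher and 1.55% lower. Between replicates of KARPAS-422, 6.44% did so in shNTC and 4.49% in shEZH2.

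**Figure D1:**
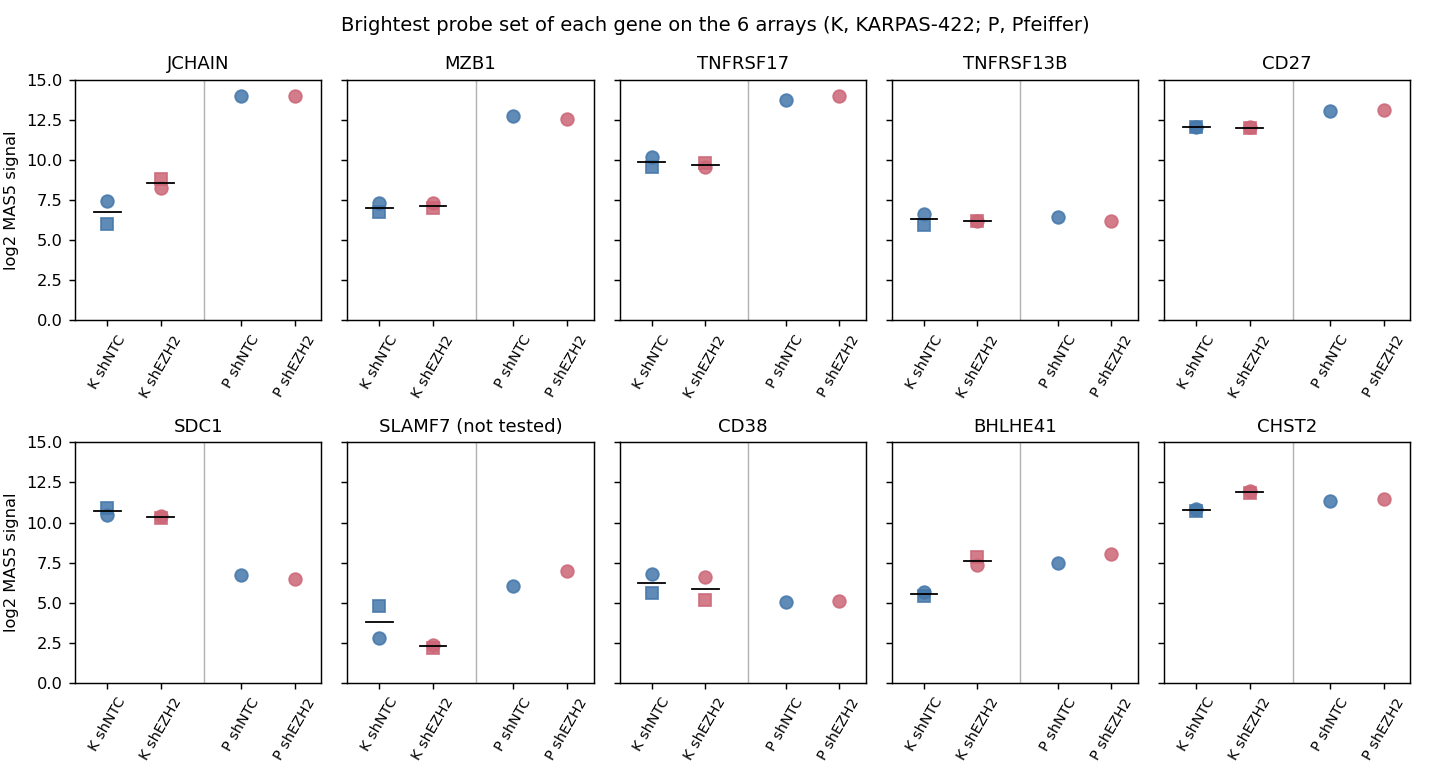
The log2 signal of each gene's brightest probe set is plotted for the shNTC (blue) and shEZH2 (red) arrays, with circles for replicate 1, squares for replicate 2 and bars for the KARPAS-422 means. JCHAIN, MZB1 and TNFRSF17 sit higher in Pfeiffer, SDC1 sits higher in KARPAS-422, and among the tested genes the KARPAS-422 arms separate most for JCHAIN, BHLHE41 and CHST2.

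JCHAIN had the widest span across the arrays of the 9 genes. In KARPAS-422 it read 7.46 and 5.97 in shNTC and 8.24 and 8.82 in shEZH2, and in Pfeiffer it read 13.98 in shNTC and 14.01 in shEZH2. Both KARPAS-422 knockdown arrays were above both controls, and both Pfeiffer arrays were far above all of KARPAS-422. Such separations were common: the KARPAS-422 arms did not overlap on 64.2% of all probe sets, and all 4 KARPAS-422 arrays lay below both Pfeiffer arrays on 30.4%. JCHAIN rose by 1.81 in KARPAS-422 (SE 0.44, 95% interval 0.77 to 2.85, n = 2 per arm, limma adjusted p 0.0284), a 3.51-fold higher signal. The size turned on the control arrays, which lay over 1 log2 unit apart. It was 2.56 without control replicate 1 and 1.07 without control replicate 2, both called, and the call was lost without knockdown replicate 1 (2.10, adjusted p 0.0772) or 2 (1.52, adjusted p 0.15). The call also ended with quantile normalization (1.61, adjusted p 0.0543), with no signal filter (adjusted p 0.0654) and with no intensity trend (adjusted p 0.138).

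In Pfeiffer the JCHAIN difference was 0.03. The difference between the lines in the response was 1.78 (SE 0.76, 95% interval -0.01 to 3.58, adjusted p 0.315), so it was not called. After knockdown the Pfeiffer signal was still 44.6-fold that of KARPAS-422.

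MZB1, the antibody chaperone, had 2 probe sets with nearly the same pattern. The first, 221286_s_at, read 7.41 and 6.48 in KARPAS-422 shNTC, 7.48 and 7.17 in shEZH2, 12.58 in Pfeiffer shNTC and 12.46 in Pfeiffer shEZH2. The second, 223565_at, read 7.31 and 6.73, then 7.28 and 7.01, and in Pfeiffer 12.71 and 12.58. On both, the KARPAS-422 arms overlapped and both Pfeiffer arrays stood well above them. The knockdown differences in KARPAS-422 were 0.38 (95% interval -0.31 to 1.07, adjusted p 0.389) and 0.13 (-0.39 to 0.64, adjusted p 0.714), and those in Pfeiffer were -0.12 and -0.13. Leaving out control replicate 1 brought the first to 0.84, which was called at an adjusted p of 0.0285, while leaving out control replicate 2 turned it to -0.08. MZB1 and JCHAIN, high together in Pfeiffer, thus had different calls in KARPAS-422, but their responses were not tested against each other.

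The 3 members of the TNF receptor family did not pass the test of knockdown in KARPAS-422. TNFRSF17, the BAFF and APRIL receptor of plasma cells, read 10.20 and 9.57 in shNTC, 9.58 and 9.83 in shEZH2, and 13.73 and 14.00 in Pfeiffer shNTC and shEZH2. It lies at chr16:11965210-11968068. Its KARPAS-422 arms overlapped, with a difference of -0.18 (95% interval -0.65 to 0.30, adjusted p 0.569), and its Pfeiffer difference was 0.27. CD27, at chr12:6443892-6451713, read 12.08 and 12.08 in shNTC, 12.07 and 11.96 in shEZH2, and 13.04 and 13.08 in Pfeiffer. Both lines held CD27 within a narrow range, and its interval of -0.26 to 0.13 around -0.07 (adjusted p 0.593) was the narrowest of those not called; under cyclic loess and quantile normalization the difference was 0.10 and 0.02. TNFRSF13B, at chr17:16939081-16972118, read 6.65 and 5.94 in shNTC, 6.19 and 6.20 in shEZH2, and 6.43 and 6.19 in Pfeiffer. These values lie about the median of the array in both lines, and the difference of -0.09 (95% interval -0.97 to 0.78, adjusted p 0.883) leaves a change of either sign possible.

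SDC1 (CD138), the heparan sulfate proteoglycan that marks plasma cells, lies at chr2:20200797-20225475 and ran opposite to JCHAIN and MZB1 between the lines. Its probe set 201287_s_at read 10.48 and 10.92 in KARPAS-422 shNTC, 10.40 and 10.30 in shEZH2, and 6.73 and 6.48 in Pfeiffer. Its probe set 201286_at read 8.60 and 9.20, then 8.60 and 8.49, and in Pfeiffer 5.39 and 5.54. All 4 KARPAS-422 arrays were above both Pfeiffer arrays on both probe sets, as on 27.1% of all. Knockdown in KARPAS-422 gave -0.35 (95% interval -0.76 to 0.07, adjusted p 0.198) and -0.36 (-0.95 to 0.24, adjusted p 0.348), neither called, and in Pfeiffer -0.25 and 0.16, of opposite sign.

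CD38, the plasma cell ectoenzyme, lies at chr4:15778328-15853232 and had 1 probe set, at 6.82 and 5.58 in KARPAS-422 shNTC, 6.61 and 5.14 in shEZH2, and 5.02 and 5.12 in Pfeiffer. The replicates of each KARPAS-422 arm were over 1 log2 unit apart, more than the arms, so the difference of -0.32 had an interval of -1.87 to 1.23 (adjusted p 0.763). SLAMF7 (chr1:160739057-160754821), an adhesion receptor of plasma and NK cells, was dim on all 3 of its probe sets, and none was tested. Its highest reading in KARPAS-422 was 4.81, while Pfeiffer read 6.05 in shNTC and 6.95 in shEZH2 on 222838_at, 5.12 and 6.39 on 219159_s_at, and 5.17 and 4.37 on 234306_s_at. Both Pfeiffer arrays exceeded every KARPAS-422 array on each of the 3, but the Pfeiffer knockdown differences of 0.90, 1.27 and -0.79 did not share a sign.

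BHLHE41, the transcriptional repressor, gave the largest called difference of the 9 genes, and on 1 of its 4 probe sets. On 221530_s_at it read 5.69 and 5.41 in KARPAS-422 shNTC, 7.36 and 7.86 in shEZH2, 7.49 in Pfeiffer shNTC and 8.03 in Pfeiffer shEZH2. The knocked-down KARPAS-422 arrays were above their controls and about at the Pfeiffer control. BHLHE41 rose by 2.06 there (SE 0.28, 95% interval 1.39 to 2.73, n = 2 per arm, limma adjusted p 0.00458), a 4.16-fold higher signal, and without any 1 array it was between 1.81 and 2.31 and called. Both controls were under the 6.21 of the filter, which the probe set passed through the knockdown and Pfeiffer arrays, so the size is uncertain: with 64 added to each linear signal it was 1.23. In Pfeiffer it was 0.54 higher.

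The other BHLHE41 probe set that passed the filter, 231243_s_at, did not show this. It read 6.24 and 6.17 in shNTC and 4.99 and 6.04 in shEZH2, a difference of -0.68 (95% interval -1.78 to 0.41, adjusted p 0.331), and the mean of both gave 0.69 (adjusted p 0.208). The dim probe set 223185_s_at read 4.87 and 1.16 in shNTC and 5.56 and 4.23 in shEZH2, and 231242_at read 2.96 and 3.74, then 3.80 and 3.40, with overlapping arms on both. In Pfeiffer all 4 probe sets read higher after knockdown, by 0.54, 1.00, 0.77 and 0.35, each on 1 array per arm.

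CHST2, the sulfotransferase, gave the most even call. On 203921_at it read 10.84 and 10.74 in KARPAS-422 shNTC, 11.99 and 11.82 in shEZH2, 11.34 in Pfeiffer shNTC and 11.44 in Pfeiffer shEZH2. The Pfeiffer arrays thus lay between the KARPAS-422 arms. CHST2 rose by 1.11 (SE 0.10, 95% interval 0.87 to 1.35, n = 2 per arm, limma adjusted p 0.00117), a 2.16-fold higher signal, and it was called under every alternative run, from 1.01 to 1.20. The dim second probe set, 243478_at, read 2.17 and 4.48 in shNTC and 5.53 and 5.62 in shEZH2, and 4.67 and 5.92 in Pfeiffer. It was not tested, and it was higher after knockdown in both lines.

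**Figure D2:**
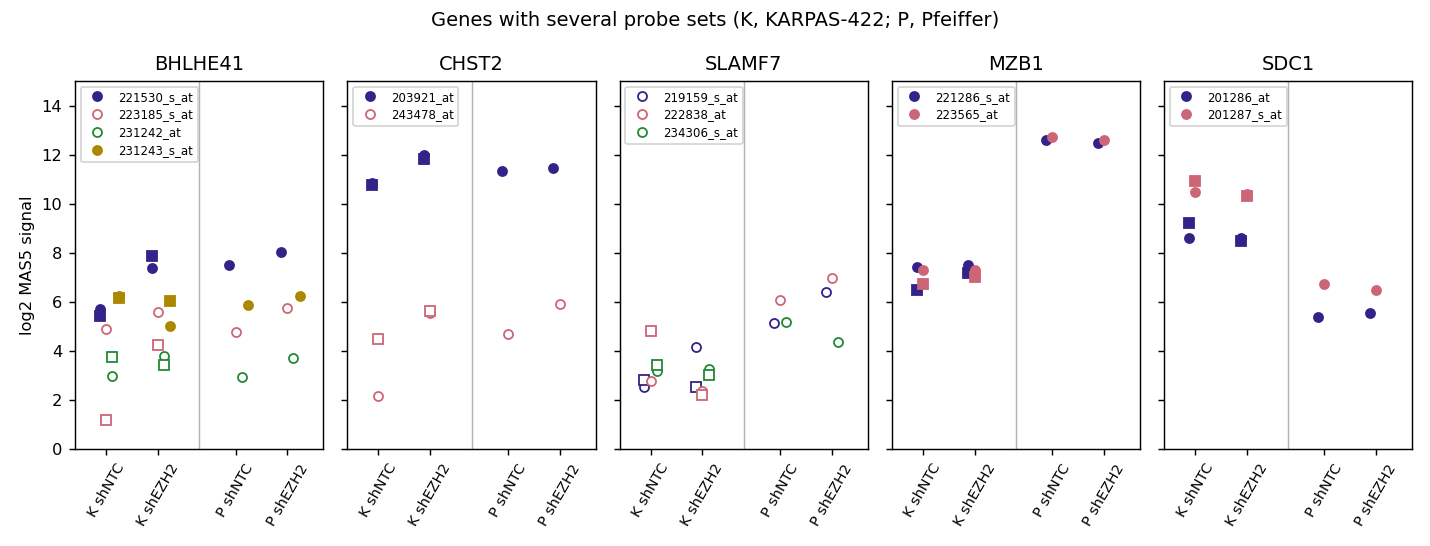
The log2 signal of every probe set is plotted by line and arm for the 5 genes with more than 1, filled where the probe set passed the filter and open where it did not, with circles for replicate 1 and squares for replicate 2. The probe sets of MZB1 and of SDC1 follow each other, while 231243_s_at of BHLHE41 does not follow 221530_s_at.

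MZB1 shared JCHAIN's high Pfeiffer signal but was not called with knockdown in KARPAS-422. The sequences just upstream of it and of the 3 genes that rose are shown because they differ in base composition and known motif letters. Each is 250 bases before the RefSeq start of the gene, read 5′ to 3′ on the gene's strand in GRCh38.p14, and capitals mark motif matches on either strand. JCHAIN lies at chr4:70655541-70666508 and its window at chr4:70666509-70666758, both on the minus strand. MZB1 lies at chr5:139387467-139389913 and its window at chr5:139389914-139390163, on the minus strand. BHLHE41 lies at chr12:26120030-26125037 and its window at chr12:26125038-26125287, on the minus strand. CHST2 lies at chr3:143119771-143124014 and its window at chr3:143119521-143119770, on the plus strand.
JCHAIN: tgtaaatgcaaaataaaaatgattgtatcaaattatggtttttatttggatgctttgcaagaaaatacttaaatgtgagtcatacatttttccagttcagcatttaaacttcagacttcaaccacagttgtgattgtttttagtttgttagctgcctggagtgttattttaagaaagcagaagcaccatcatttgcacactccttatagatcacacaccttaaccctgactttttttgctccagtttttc
MZB1: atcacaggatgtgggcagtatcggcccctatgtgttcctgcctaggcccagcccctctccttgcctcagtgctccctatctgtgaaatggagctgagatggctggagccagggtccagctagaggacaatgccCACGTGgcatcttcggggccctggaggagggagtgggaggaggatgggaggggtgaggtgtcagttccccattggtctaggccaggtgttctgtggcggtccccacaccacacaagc
BHLHE41: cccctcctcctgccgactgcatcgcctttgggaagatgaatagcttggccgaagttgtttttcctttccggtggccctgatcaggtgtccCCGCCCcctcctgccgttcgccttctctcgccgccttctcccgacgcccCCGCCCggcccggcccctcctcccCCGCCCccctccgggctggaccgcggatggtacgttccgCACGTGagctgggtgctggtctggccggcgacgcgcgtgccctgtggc
CHST2: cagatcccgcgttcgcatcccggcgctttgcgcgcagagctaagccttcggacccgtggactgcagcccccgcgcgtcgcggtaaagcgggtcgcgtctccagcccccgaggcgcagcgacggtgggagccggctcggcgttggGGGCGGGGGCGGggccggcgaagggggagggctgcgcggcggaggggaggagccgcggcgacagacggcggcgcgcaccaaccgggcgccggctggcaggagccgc

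The JCHAIN window held 0 CpG pairs at 32.8% GC, and the MZB1 window held 4. Those of BHLHE41 and CHST2 held 26 and 42, at 70.4% and 78.0% GC, beside a median of 11 over 27305 human promoters. So the 3 genes that rose included windows with none and with many CpG pairs. The letters searched were CACGTG (the E-box bound by basic helix-loop-helix factors), GGGCGG (a GC box) and TATAAA. Of 8 members with an entry, 2 held an E-box, MZB1 at position -117 and BHLHE41 at -48 from the start, and 6.49% of all promoters hold one. A GC box was in 4 of the 8, including BHLHE41 and CHST2, and in 42.3% of all. No window of the 8 held TATAAA, which 11.1% of all hold, and the JCHAIN window held none of the 3 motifs, which do not overlap each other in these windows.

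**Figure D3:**
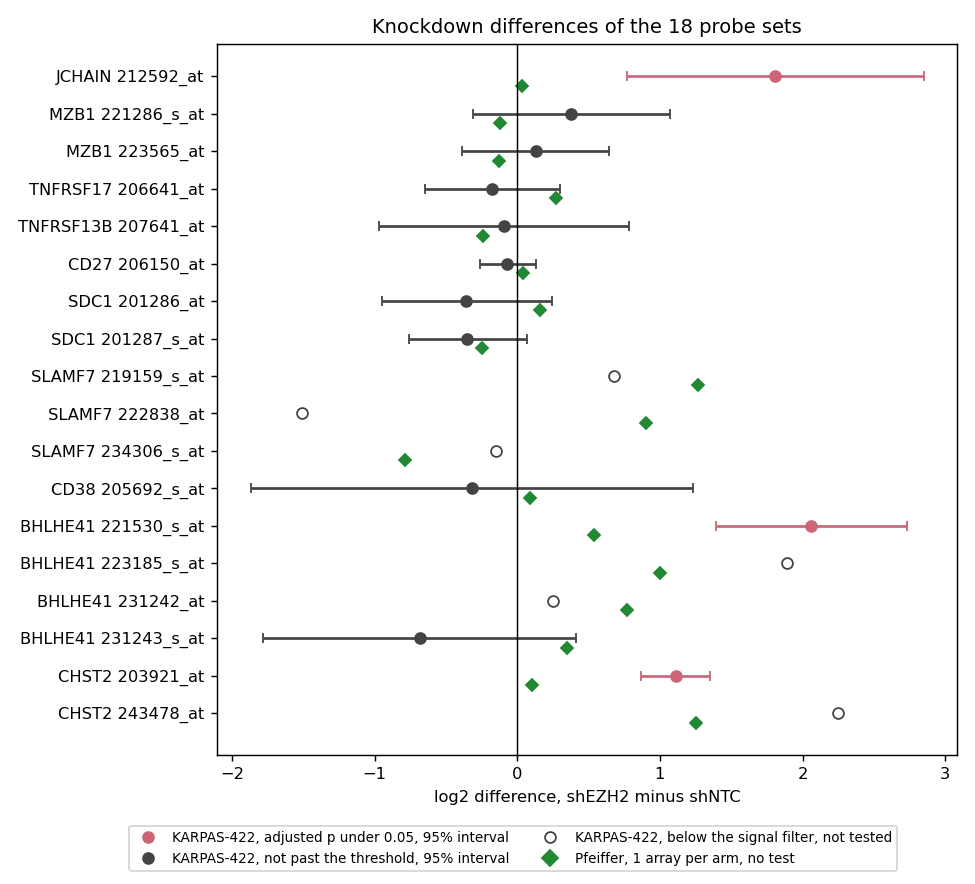
The log2 difference between shEZH2 and shNTC is plotted for all 18 probe sets, as circles with 95% intervals for KARPAS-422 (open and without an interval where not tested) and as green diamonds for Pfeiffer. In KARPAS-422 JCHAIN, BHLHE41 221530_s_at and CHST2 203921_at lie at 1.81, 2.06 and 1.11, while in Pfeiffer these read 0.03, 0.54 and 0.10.

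A single knockdown effect over both lines was tested, with the line as a term. It averages the lines, with more weight on KARPAS-422, so a call does not show that both lines responded. Only BHLHE41 221530_s_at was called, at 1.55 (SE 0.35, limma adjusted p 0.0487), which is 1 of 12 probe sets beside 4.85% of all, 3.10% higher and 1.75% lower. CHST2 was at 0.77 (SE 0.19, adjusted p 0.0576) and JCHAIN at 1.22 (adjusted p 0.138). The BHLHE41 call was lost without any 1 of the 4 KARPAS-422 arrays, with adjusted p from 0.153 to 0.208. It was 0.96 with 64 added to each linear signal.

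The difference between the lines in their response was tested as an interaction, and 0 of 12 probe sets were called by limma, with 2 at an unadjusted p under 0.05, beside 1.22% called of all, 0.941% higher and 0.282% lower. Those 2 were CHST2 and BHLHE41. CHST2 differed by 1.01 (SE 0.18, 95% interval 0.59 to 1.43, adjusted p 0.0545) and BHLHE41 by 1.52 (SE 0.49, 0.36 to 2.68, adjusted p 0.213). CHST2 was called with 1 probe set per gene (adjusted p 0.0437) and with the stricter filter (adjusted p 0.0375), and JCHAIN only without control replicate 1 (2.53, adjusted p 0.019). With 1 Pfeiffer array per arm, the spread in these tests comes from KARPAS-422 alone.

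The control arms set the lines themselves side by side, and 7 of the 9 genes differed between them, with JCHAIN, MZB1 and TNFRSF17 far higher in Pfeiffer and SDC1 far higher in KARPAS-422. Of 12 probe sets 7 were lower and 2 higher in KARPAS-422, and 3 were not called, where 42.0% of all probe sets were called, 20.4% higher and 21.7% lower. Lower in KARPAS-422 were JCHAIN at -7.26 (SE 0.54, limma adjusted p 6.6e-05), which is a 154-fold higher signal in Pfeiffer, and MZB1 at -5.64 and -5.69 (adjusted p 3.23e-05 and 8.09e-06). TNFRSF17 followed at -3.84 (SE 0.25, adjusted p 3.39e-05), 14.4-fold higher in Pfeiffer. Only 183 of the 25186 probe sets tested lay further below than JCHAIN. The JCHAIN gap turned on the control arrays, 1 of which read under 6.21: it was -8.01 without control replicate 1 and -6.52 without control replicate 2, both called.

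Smaller gaps in the same direction were found for BHLHE41 221530_s_at at -1.94 (SE 0.35, adjusted p 0.0039), CD27 at -0.96 (SE 0.10, adjusted p 0.000328) and CHST2 at -0.55 (SE 0.13, adjusted p 0.0112). CHST2 was not called with no intensity trend (-0.55, adjusted p 0.0726) nor under median centring (-0.29, adjusted p 0.115), which shifts the median of all probe sets from -0.01 to 0.24. With 64 added to each linear signal BHLHE41 was -1.14, and it was not called when its probe sets were averaged (-0.81, adjusted p 0.172). SDC1 was the gene higher in KARPAS-422, at 3.51 and 3.97 (SE 0.31 and 0.22, adjusted p 0.000141 and 1.59e-05), or 11.4-fold and 15.6-fold. The first of these, 201286_at, passed the filter through KARPAS-422 only, as Pfeiffer read 5.39 and 5.54, under 6.21. Its size is therefore uncertain, and over the alternatives it was as low as 2.36. CD38 (1.18, 95% interval -0.72 to 3.07, adjusted p 0.283), TNFRSF13B (-0.14, -1.22 to 0.93, adjusted p 0.83) and BHLHE41 231243_s_at (0.32, adjusted p 0.688) were not called. SDC1 thus stood in the opposite line to JCHAIN, MZB1 and TNFRSF17. This was not a split of surface from secretory genes, as TNFRSF17 is itself a surface receptor. SLAMF7, another surface gene, also read higher in Pfeiffer but was too dim to test. The median over the 12 was -0.75, and over all probe sets it was -0.01.

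**Figure D4:**
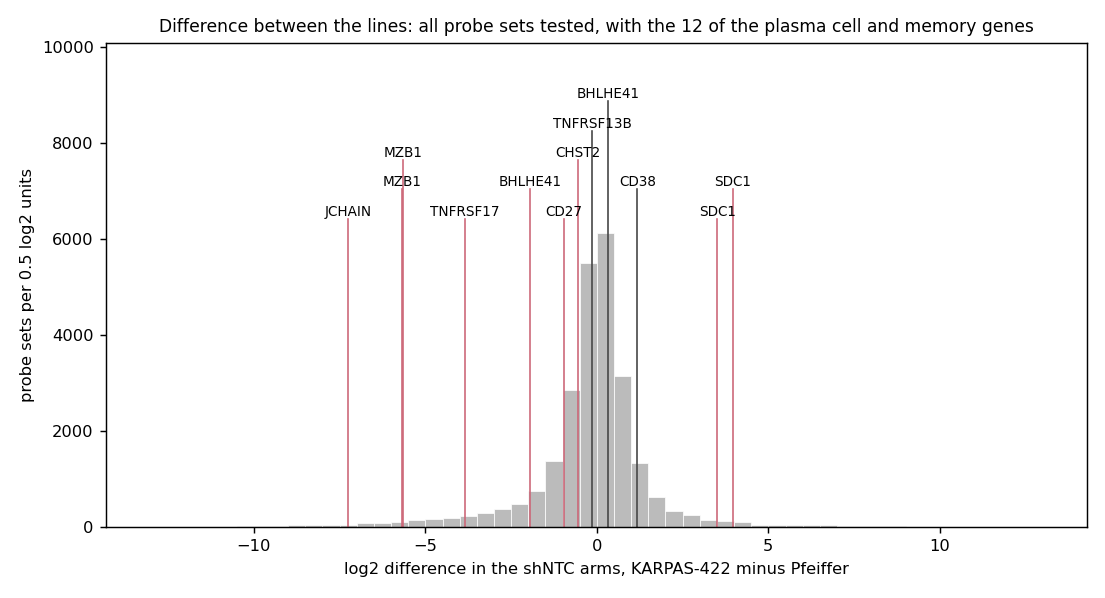
Grey bars count all 25186 probe sets by their log2 difference between the shNTC arms, KARPAS-422 minus Pfeiffer, and lines mark the 12 of these genes, red where the adjusted p was under 0.05. JCHAIN at -7.26 and MZB1 at -5.64 and -5.69 stand in the left tail, and SDC1 at 3.51 and 3.97 in the right tail.

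In the knocked-down arms the gaps between the lines read differently for the genes that rose. The Pfeiffer signal exceeded that of KARPAS-422 by 5.48 for JCHAIN and 0.43 for BHLHE41, and for CHST2 KARPAS-422 was above Pfeiffer by 0.46. For the genes not called with knockdown the gaps were 5.14 and 5.44 for MZB1, 4.29 for TNFRSF17 and 1.06 for CD27. These come from the same arrays as the tests above and were not tested again.

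The ligands, partners and adaptors of these genes were counted next, each on its brightest probe set. Of 18 such genes 15 were measured, and in KARPAS-422 5 rose and 1 fell, where 12.5% of all genes rose and 11.6% fell. TNFSF13B, which encodes BAFF, the ligand of TNFRSF13B and TNFRSF17, rose by 2.35 (SE 0.27, adjusted p 0.00253) and read -0.04 in Pfeiffer. Its KARPAS-422 controls, 5.63 and 5.72, were under 6.21, and with 64 added to each linear signal the difference was 1.5. CD70, the ligand of CD27, rose by 1.41 (SE 0.29, adjusted p 0.0171), and PECAM1 (CD31), the ligand of CD38, by 2.97 (SE 0.25, adjusted p 0.00091). The ligands of CD27 and CD38 thus rose where the receptors themselves were not called. Ligands and receptors were not tested against each other, and the CD38 interval of -1.87 to 1.23 leaves a change of either sign possible.

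The other 2 that rose, named after their values were seen, were SDCBP (syntenin, which binds the tail of SDC1) by 1.09 and TRAF5, a signalling adaptor, by 0.76. CAMLG, a partner of TNFRSF13B, fell by 0.50 (adjusted p 0.00985). Without knockdown replicate 1 or 2, 3 rose, since CD70 (adjusted p 0.0773 and 0.099) and TRAF5 (0.121 and 0.129) lost their call, and CAMLG lost it without replicate 1 (adjusted p 0.0565). TRAF5 was also lost without control replicate 1 (adjusted p 0.0835).

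Of 22 family relatives 15 were measured, 3 rose and 0 fell, where 12.5% of all genes rose and 11.6% fell. CD84, a receptor of the SLAM family, rose by 1.54 (SE 0.12, adjusted p 0.000649) and was 1.04 higher in Pfeiffer. CD40, the TNF receptor for T cell help, rose by 1.14 (SE 0.11, adjusted p 0.00134), and CD48, another SLAM receptor, by 0.69 (adjusted p 0.0468), a call lost without any 1 array (adjusted p 0.0844 to 0.186). The medians over the list were -0.05 in KARPAS-422 and 0.32 in Pfeiffer, and over all genes they were -0.02 and 0.03.

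Other plasma cell genes were counted in the same way. Of 38 genes 36 were measured, and 4 rose, 6 fell and 26 were not called. Over all genes 12.5% rose and 11.6% fell, and the counts were not tested against these shares. The median over the list was -0.15. SLC38A5, an amino acid transporter, rose by 2.03 (SE 0.31, adjusted p 0.00674), but all 4 of its KARPAS-422 arrays, at 3.74, 3.96, 5.64 and 6.11, were under the 6.21 that it passed through Pfeiffer. Its size is therefore uncertain, at 1.30 with 16 and 0.65 with 64 added to each linear signal. ERN1 (IRE1), a sensor of unfolded protein, rose by 1.15 (adjusted p 0.0298), with 1 further probe set of opposite sign, and with 64 added it was 0.70. RRBP1, a ribosome receptor of the endoplasmic reticulum, rose by 0.75 (adjusted p 0.035), also with 1 further probe set of opposite sign, and DNAJB9, a co-chaperone named after its value was seen, by 0.44 (adjusted p 0.0236). Among those that fell, MANF, SDF2L1 and CRELD2, all of the endoplasmic reticulum, fell by 0.79 (adjusted p 0.0042), 0.71 (0.0321) and 0.67 (0.0202).

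Averaging a gene's probe sets ended the calls of ERN1 (0.41, adjusted p 0.365) and RRBP1 (0.45, adjusted p 0.331). RRBP1 was also not called under cyclic loess (adjusted p 0.0674) or quantile normalization (0.51, adjusted p 0.102) or with no filter (adjusted p 0.0651). Of the 7 named, SLC38A5 and MANF were called without any 1 array, although MANF was not with no intensity trend (adjusted p 0.0725), and the other 5 lost their call without either knockdown array (adjusted p 0.0508 to 0.17). ERN1 and RRBP1 lost it also without control replicate 1, and DNAJB9, SDF2L1 and CRELD2 without control replicate 2 (adjusted p 0.0594 to 0.104), where SDF2L1 was at -0.42. Without knockdown replicate 1, 1 rose and 1 fell, without knockdown replicate 2, 1 rose and 2 fell, and without control replicate 2, 3 fell. Between the control arms 21 of the 36 were lower in KARPAS-422 and 2 higher, where 22.5% and 21.6% of all genes were.

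Of 28 memory B cell genes 19 were measured, and 6 rose and 0 fell in KARPAS-422, where 12.5% of all genes rose and 11.6% fell. The list median was 0.30 in KARPAS-422 and 0.60 in Pfeiffer. KLF2, a regulator of lymphocyte trafficking, rose by 3.52 (SE 0.28, adjusted p 0.000643) and was 0.68 higher in Pfeiffer. Its controls read 4.98 and 5.18, and 6.03 in Pfeiffer, all under 6.21, so it passed the filter through shEZH2 arrays only. Its size is therefore uncertain, and with 64 added to each linear signal the KARPAS-422 difference was 2.21. TLR7, a sensor of single-stranded RNA, rose by 3.40 (SE 0.62, adjusted p 0.0113), and AIM2, a sensor of DNA, by 3.19 (SE 0.51, adjusted p 0.00719). The TLR7 controls read 7.87 and 5.75, the second under 6.21, and without 1 array its difference ran from 2.34 to 4.46. The AIM2 controls, 3.83 and 5.64, were also under 6.21, and with 64 added its difference was 1.70. With no intensity trend neither TLR7 (adjusted p 0.0882) nor AIM2 (adjusted p 0.0795) was called. CD27, the defining surface gene of this cell type, was not among the genes called. In Pfeiffer, on 1 array per arm, 5 of the 19 were higher and 1 was lower by at least 1 log2 unit, where 3.23% and 1.48% of all genes were. Without knockdown replicate 1, 2 rose, and TLR7 (adjusted p 0.0697) and AIM2 (adjusted p 0.0518) lost their call; TLR7 lost it without replicate 2 too (adjusted p 0.0821). Without control replicate 1, 2 fell.

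The mature B cell identity markers were counted as the cells' own lineage. CD79B rose by 0.39 (adjusted p 0.0212), and the other 8 were not called, where 12.5% of all genes rose. Besides these, 1 other gene of the list was not on the array. Without knockdown replicate 1 CD79B was not called (0.31, adjusted p 0.103), nor without control replicate 1 (0.34, adjusted p 0.0915), where 2 others were.

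Markers of other cell types were counted beside these results, by the sum of their linear signals. Of 12 T and NK cell markers 5 passed the filter, and their list summed to 6627 and 7185 in KARPAS-422 shNTC, 4558 and 4124 in shEZH2, and 11949 and 12952 in Pfeiffer. The Pfeiffer sums rest mainly on CD8A, which read 13.49 and 13.60 there and was not called in KARPAS-422 (0.54, limma adjusted p 0.111). CD3D fell by 0.77 (adjusted p 0.0114) and CD3G by 0.64 (adjusted p 0.0472), where 11.6% of all genes fell. Both read over 10 on each KARPAS-422 array. Without knockdown replicate 1 or 2 neither was called, without control replicate 1 CD3D was not (adjusted p 0.0516), and without control replicate 2 CD3G was not (adjusted p 0.192). The part of these markers in the results above was not tested. Of 7 myeloid markers on the array 2 passed, and the list summed to between 141 and 294 on every array. The 2, ITGAM (-0.76, adjusted p 0.225) and CSF1R (-0.21, adjusted p 0.81), were not called.

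Of 10 fibroblast and epithelial markers 6 passed, with sums between 11624 and 13971 in KARPAS-422 and of 11634 and 9347 in Pfeiffer. These sums rest mainly on DCN in KARPAS-422, at 13.71 and 13.60 in shNTC, and on EPCAM in Pfeiffer, at 13.33 and 12.98. Of the markers that passed, 0 were called. The smallest p were those of EPCAM (1.62, adjusted p 0.0637) and COL1A2 (1.95, adjusted p 0.131). EPCAM read 2.86, 4.45, 5.64 and 4.90 in KARPAS-422, all under 6.21, and passed the filter through Pfeiffer only. Over the alternatives its difference was as low as 0.4. The COL1A2 controls, 5.26 and 2.99, were also under 6.21, so both sizes are uncertain. EPCAM was called without control replicate 2 (2.42, adjusted p 0.00329) and COL1A2 without control replicate 1 (3.09, adjusted p 0.0306).

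For the 3 genes that rose, the genes with the closest pattern over the 6 arrays were found among 13035 others, as the root mean square distance between profiles centred on their own means. They were ATP1B1 (0.31) and BCL2A1 (0.40) for JCHAIN, REEP3 (0.18) and ILDR1 (0.20) for BHLHE41, and NPC2 (0.07) and DOCK8 (0.08) for CHST2, in log2 units. The distance was not scaled to a gene's span over the arrays, which was wider for JCHAIN than for CHST2. Distances of different members are therefore not compared. These distances rest on 4 groups of arrays and are a description.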

How the data were processed

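The deposited table holds log2 signals that the authors made with MAS5, per the submitters' processing notes, which give no version. The log base was not stated. Raised to the power of 2, the 2% trimmed mean was 500.0 on all 6 arrays, so values were read as log2. Array medians ran from 6.07 to 6.41, and replicates correlated at 0.974 (shNTC) and 0.979 (shEZH2) over probe sets. No detection calls or scan dates were used, so no batch was tested. Dim signals spread widely (lowest value -4.57), and precision is limited by having so few arrays.

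Of 54675 probe sets, 41091 had 1 gene symbol, 1801 several and 11721 none, and 62 were controls. Gene IDs of 41037 matched RefSeq (GRCh38.p14). Per the labels' protocols, cells received virus with polybrene at 8 µg/ml for 2 days, then puromycin at 1 µg/ml for 2 days.

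Two-sided tests were run with limma 3.58.1 under R 4.3.3 (lmFit, then eBayes with a trend on intensity). P-values were adjusted by Benjamini-Hochberg over 25186 probe sets and a threshold of 0.05. KARPAS-422, the control arms and the difference between lines came from a model of 4 groups, and both lines from a model with a line term. Pfeiffer alone was not tested. The members, lists and alternatives were chosen with earlier results of these data known. Besides the members and EZH2, text names up to 3 called genes per list and direction with the largest difference (else the 2 smallest p), and the 2 nearest profiles per called member. Lists were counted by gene, on the brightest of its probe sets that passed.

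On simulated data with 200 changed probe sets of 25186, the KARPAS-422 test recovered 62% of those changed by 1 log2 unit and 87% by 2, and called 5 unchanged ones. Over both lines it was 73% and 92% with 27 unchanged called, for the difference between lines 33% and 69% with 18, and for the control arms 42% and 69% with 7. In the simulation probe sets of like signal shared the same spread, and over both lines the change was equal in each line. The real data need not follow either, so these rates may not hold for them. Promoters came from a RefSeq table, with 8 of the 10 members matched.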

Additional observations from a re-analysis of the deposited data

Results flagged for a closer look

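None of the 10 genes met a criterion, and groups of 2 and 1 arrays are too small to test for a single outlying array. The test of the difference between lines called FAS of the memory B cell list, at -0.19 in KARPAS-422 and 1.51 in Pfeiffer (limma adjusted p 0.00743). It also called CD79A of the identity markers, at -0.09 and 0.95 (adjusted p 0.0352). Of the list genes chosen for naming, KLF2 of the memory B cell list alone was called. It passed the signal filter through shEZH2 arrays only, so the sizes of its differences are uncertain. KLF2 rose by 3.52 in KARPAS-422 and 0.68 in Pfeiffer, a difference of 2.85 (SE 0.48, limma adjusted p 0.0465). It was not called without knockdown replicate 1 (2.89, adjusted p 0.233) or 2 (2.80, adjusted p 0.234), with no filter (adjusted p 0.118) or with no intensity trend (adjusted p 0.114). With 64 added to each linear signal it was 1.83. Over the alternatives its adjusted p ran from 0.0241 to 0.234.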

How the results depend on the processing

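In KARPAS-422 2 to 3 of the 9 genes were called under all alternatives, against 3 in the main setting, and in the control arms 6 to 8, against 7. In Pfeiffer 0 passed 1 log2 unit throughout. Over both lines the 1 call became 2 with 64 added to each signal or with the stricter filter. It became 0 with cyclic loess or quantile normalization, no filter, no intensity trend, the mean of a gene's probe sets or no _x_at and _s_at probe sets, and was 0 to 0 without any 1 array. For the difference between lines, 0 calls became 1 with 1 probe set per gene, the mean of probe sets or the stricter filter, and 0 to 1 without 1 array. The cause was not tested.

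Deviations of same-numbered KARPAS-422 arrays correlated at 0.019 over all probe sets tested. With 2 arrays per arm this cannot show whether same-numbered arrays were handled together. With the number as a block, 0 genes were called over both lines (BHLHE41 adjusted p 0.0984) and 1 for the difference between lines (CHST2, adjusted p 0.023). Over all probe sets the block gave 3499 higher and 2828 lower in KARPAS-422, 25 and 2 over both lines and 384 and 200 for the difference between lines. It also called CD38 between the control arms (1.85, adjusted p 0.0493), and gave 0.04 for TNFRSF13B and 0.02 for EZH2 there.

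The counts over all probe sets were 3122 higher and 2293 lower in KARPAS-422, against 863 and 113 with no intensity trend, 2306 and 1537 with no filter, and 1099 and 841 without knockdown replicate 1. Over both lines, 781 and 441 became 0 and 0 with no trend or without any 1 array, 262 and 108 with no filter, 1126 and 711 with the stricter filter and 726 and 1573 with median centring. For the difference between lines, 237 and 71 became 0 and 0 with no trend or without a knockdown array, 90 and 11 with no filter, 352 and 127 with the stricter filter and 367 and 67 or 391 and 122 without control replicate 1 or 2. Median centring moved the share of calls that were higher from 57.7% to 42.5% in KARPAS-422, from 63.9% to 31.6% over both lines and from 48.5% to 64.8% in the control arms.

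With no intensity trend, JCHAIN, CD70, TRAF5, CAMLG, CD48, ERN1, RRBP1, DNAJB9, MANF, SDF2L1, CRELD2, TLR7, AIM2, CD79B, CD3D and CD3G lost their KARPAS-422 calls (adjusted p 0.0637 to 0.146).

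The values that changed sign were all uncalled. In KARPAS-422, MZB1 223565_at was -0.04 under quantile normalization, and CD27 0.10 under cyclic loess and 0.02 under quantile. Over both lines, MZB1 223565_at was -0.04 under cyclic loess and -0.06 under median centring and quantile, TNFRSF17 0.02 under cyclic loess, and CD27 0.09 and 0.03 under cyclic loess and quantile. For the difference between lines CD27 was 0.01 under cyclic loess. In the control arms TNFRSF13B was 0.12 under median centring and 0.11 under quantile, and EZH2 0.25 under median centring. In Pfeiffer, which has no test, JCHAIN was -0.09, CD27 -0.08, CD38 -0.02 and CHST2 -0.01 under median centring. Under quantile normalization JCHAIN was -0.03 and CD38 -0.04, and under cyclic loess CD38 was -0.03.

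Without 1 array, the KARPAS-422 values ran from -0.08 to 0.84 and -0.16 to 0.42 for the MZB1 probe sets, -0.49 to 0.14 for TNFRSF17, -0.45 to 0.26 for TNFRSF13B, -1.05 to 0.42 for CD38 and -0.77 to 0.34 for CSF1R. Over both lines they ran from -0.10 to 0.43 and -0.15 to 0.18 for MZB1, -0.16 to 0.19 for TNFRSF17, -0.36 to 0.05 for TNFRSF13B, -0.05 to 0.01 for CD27, -0.31 to 0.03 for SDC1 201286_at, -0.56 to 0.28 for CD38 and -0.54 to 0.06 for BHLHE41 231243_s_at. For the difference between lines they ran from -0.03 to 0.55 for MZB1 223565_at, -0.21 to 0.50 for TNFRSF13B, -0.32 to 0.13 for SDC1 201287_s_at and -1.15 to 0.32 for CD38, and in the control arms from -0.50 to 0.22 for TNFRSF13B and -0.07 to 0.07 for EZH2. An arm left with 1 array was assumed to vary like the other.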
